A study of Arabidopsis thaliana with 6 samples.

Results

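The genes described here are RAP2.9 and its relatives in the A-5 subgroup of DREB transcription factors, 8 loci of the 29920 on the array. The group was selected on 1 measured value, the strong rise of RAP2.9 (AT4G06746, also called DEAR5) in the ERF6-overexpressing line. DEAR1 (AT3G50260), DEAR2 (AT5G67190), DEAR3 (AT2G23340), DEAR4 (AT4G36900), RAP2.1 (AT1G46768), DREB26 (AT1G21910) and AT1G22810 were added as relatives of the same subgroup. Earlier results of these data were known when they were chosen. Each of the 8 had 1 row in the deposited table, so no member was missing and none was dropped by a filter. They lie on all 5 chromosomes: RAP2.9 and DEAR4 on chromosome 4, RAP2.1, DREB26 and AT1G22810 on chromosome 1, DEAR3 on 2, DEAR1 on 3 and DEAR2 on 5.

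RNA came from leaf 3 of Arabidopsis thaliana seedlings of ecotype Col-0, aged 9 DAS in the labels' words, and was hybridised to AGRONOMICS1 tiling arrays. Both lines had been on medium with 5 µM dexamethasone for 4 h, so the controls carry the agent too. The compared groups were 3 arrays of ERF6:IOE, a strong overexpression line of ERF6 (ETHYLENE RESPONSE FACTOR 6), and 3 arrays of the control line GFP:IOE. The leaves came from 3 independent experiments, each with seedlings from several plates, and were dissected after storage in RNAlater, an RNA preservative. Only 1 ERF6 line was arrayed, uninduced seedlings were not analysed here, and the sources used here do not name the promoter behind either transgene.

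DREB factors carry an AP2 DNA-binding domain and bind the dehydration-responsive element, a short promoter motif of genes for cold and drought responses. The best known of them, the CBF proteins of subgroup A-1, activate these genes. Several A-5 proteins instead carry an EAR motif, a short repression motif that recruits corepressors, and the name DEAR stands for DREB and EAR motif protein. RAP2.1 is itself a target of the CBF proteins and represses stress genes with that element, and so acts as a brake on the same pathway. That role does not extend to the whole subgroup, of which DREB26 has been studied as an activator.

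Values are log2 expression after RMA, a procedure that subtracts background, gives all arrays the same distribution and combines each gene's probes into 1 value. A level is therefore compared between arrays for 1 gene only, never between genes. The lower quartile of an array lay between 4.03 and 4.08, and values under it are close to the floor, where differences are compressed. ERF6 itself lay at 6.89, 7.38 and 7.55 in GFP:IOE and at 9.99, 9.97 and 10.4 in ERF6:IOE, so the arrays matched their labels. The leaf markers had a mean log2 level over 4 measured genes from 11.1 to 11.4 in GFP:IOE and from 11.1 to 11.5 in ERF6:IOE. The means over 3 root markers were 6.06 to 6.35 in GFP:IOE and 6.07 to 6.35 in ERF6:IOE, and those over 3 shoot meristem markers 4.13 to 4.55 and 4.40 to 4.68. PYK10, a glucosidase gene among the root markers, lay at 9.46 ± 0.11 in GFP:IOE and 9.58 ± 0.35 in ERF6:IOE. No marker of these 3 lists passed the test between the lines, the largest absolute t values being those of RCA (log2 fold 0.11) and LHCB2.1 (0.13) for leaf, PYK10 (0.12) and SHR (-0.06) for root, and CLV3 (0.45) and STM (0.19) for the meristem. The arrays of repeat 3 stood apart in both lines by their CBF transcripts, as described further on. Values without that repeat are given only for RAP2.9, DEAR1, RAP2.1, CBF1, CBF2, DREB1A and TCH3.

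RAP2.9 was near the floor in the control line and well above it in ERF6:IOE. It lay at 3.40, 3.12 and 3.19 on the GFP:IOE arrays and at 7.08, 6.80 and 7.04 on the ERF6:IOE arrays. The lowest ERF6:IOE array stood 3.41 log2 units above the highest control, so the lines were far from overlapping. The means were 3.24 ± 0.14 and 6.97 ± 0.15 (SD, n = 3 each), a log2 fold of 3.74 (SE 0.12) and the 11th largest rise of the 30237 rows. This difference chose the group, and no test is given for it. In whole leaves, more cells with the transcript and more transcript per cell cannot be told apart. All 3 controls lay under the lower quartile of their arrays, so the fold is approximate. Between arrays of the same number the difference was 3.68, 3.68 and 3.85, and it remained 3.68 without repeat 3 of both lines.

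RAP2.9 varied no more among arrays of a line than most genes did. Its pooled SD within lines was 0.15, against a median of 0.16 over all rows. Its neighbours on the chromosome did not share the rise. The nearest rows on the one side, AT4G06744 and the pseudogene AT4G06735, had log2 folds of 0.13 and -0.46. Those on the other side, the pseudogenes AT4G06748 and AT4G06750, had -0.28 and 0.20. Both of these were dim, so their differences may be compressed. AT4G06748 had means of 4.03 in GFP:IOE and 3.75 in ERF6:IOE. AT4G06750 lay from 3.16 to 3.69, under the lower quartile of every array. None of the 4 passed the test (limma adjusted p from 0.602 to 0.873).

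**Figure D1:**
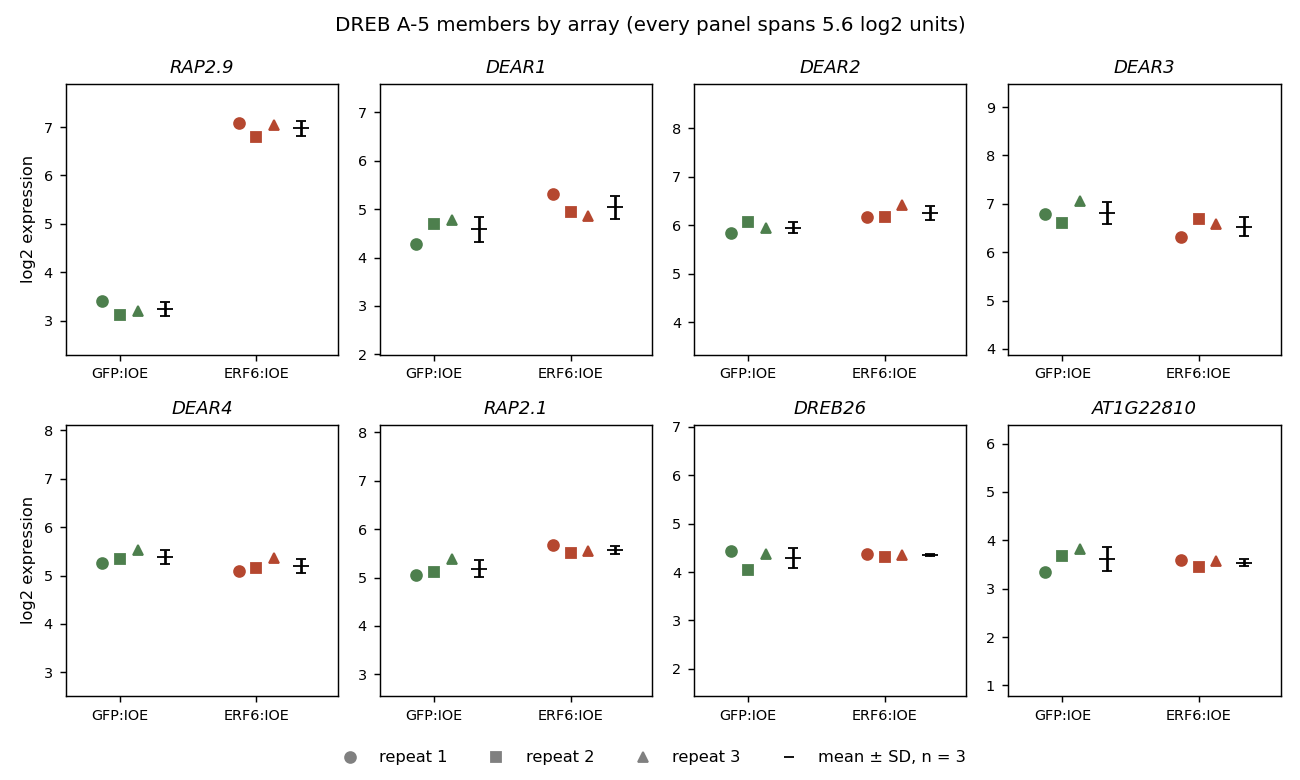
Log2 expression of the 8 members on each array, with 1 panel per gene, circles, squares and triangles for repeats 1, 2 and 3, and bars for the mean ± SD of 3 arrays. All panels span the same number of log2 units. RAP2.9 moves from 3.24 to 6.97, while the 7 relatives each span at most 1.03 log2 units over all 6 arrays.

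None of the 7 relatives passed the test. In the limma fit over all rows 0.698% were called higher in ERF6:IOE and 0.0265% lower, at an adjusted p of 0.05. Adjusted p-values of the 7 ran from 0.382 to 0.95 (limma). Their log2 folds ran from -0.28 to 0.46 with a median of 0.07, against -0.02 over all rows, and 4 were above 0 and 3 below. At an unadjusted p under 0.05 there were 3 of the 7, DEAR1, RAP2.1 and DEAR2, all higher, where 4.80% of all rows were higher at that level. The same 3 were the ones whose lines did not overlap, against 6.93% of all rows that were higher without overlap and 6.52% that were lower. The relatives belong to the group that this contrast chose, so nothing is read from these shares.

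DEAR1 is known as a repressor whose overexpression raises pathogen resistance and lowers freezing tolerance, and it is listed in the name table as CEJ1, for cooperative regulation by ethylene and jasmonate. It lay at 4.28, 4.70 and 4.77 in GFP:IOE and at 5.31, 4.95 and 4.86 in ERF6:IOE. Its lines were separated by only 0.09 log2 units. The log2 fold was 0.46 (SE 0.17, 95% interval 0.05 to 0.87), with an adjusted p of 0.532 (limma). Most of the difference came from repeat 1, where the arrays differed by 1.03, against 0.25 and 0.09 in repeats 2 and 3. Without repeat 1 of both lines the log2 fold was 0.17 and without repeat 3 it was 0.64, neither past the test (limma adjusted p 0.746 and 0.659).

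RAP2.1, the CBF-induced repressor of stress genes, lay at 5.05, 5.12 and 5.39 in GFP:IOE and at 5.67, 5.50 and 5.55 in ERF6:IOE. The lowest ERF6:IOE array was 0.11 above the highest control. The log2 fold of RAP2.1 was 0.39 (SE 0.12, 95% interval 0.11 to 0.67), with the lowest adjusted p of the relatives, 0.382 (limma). The highest control was repeat 3, and without that repeat the log2 fold was 0.50 (limma adjusted p 0.546).

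DEAR2 lay at 5.84, 6.06 and 5.94 in GFP:IOE and at 6.17, 6.17 and 6.41 in ERF6:IOE, with 0.10 log2 units between the lines. The log2 fold of DEAR2 was 0.30 (SE 0.12, 95% interval 0.03 to 0.57), and the adjusted p was 0.545 (limma). The intervals of DEAR1, RAP2.1 and DEAR2 leave out 0 one gene at a time, but none of the 3 differences passed after adjustment over all rows.

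DEAR3 and DEAR4 had negative log2 folds and lines that overlapped. DEAR3 lay at 6.78, 6.60 and 7.06 in GFP:IOE and at 6.31, 6.69 and 6.59 in ERF6:IOE. The log2 fold was -0.28 (SE 0.16, 95% interval -0.65 to 0.08). DEAR4, listed as RAP2.10 in the name table and linked to leaf senescence in other work, lay at 5.25, 5.35 and 5.53 against 5.09, 5.15 and 5.35. It was lower in ERF6:IOE between the arrays of every number, by a similar amount each time (-0.16, -0.20 and -0.18). Its log2 fold was -0.18 (SE 0.12, 95% interval -0.46 to 0.10, limma adjusted p 0.811). Nor did DEAR4 pass in a fit blocked on the repeat (limma adjusted p 0.595).

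DREB26 and AT1G22810 did not separate the lines. DREB26, studied elsewhere as an activator in stress tolerance and development, lay at 4.43, 4.05 and 4.37 in GFP:IOE and at 4.38, 4.32 and 4.36 in ERF6:IOE. Its log2 fold was 0.07 (SE 0.12, 95% interval -0.22 to 0.36), and the second control array was the 1 that fell below the rest. AT1G22810 lay at 3.35, 3.69 and 3.82 against 3.60, 3.45 and 3.57, under the lower quartile on all 6 arrays. Its log2 fold was -0.08 (SE 0.14), and a difference in so dim a row may be compressed. It was the 1 member under that quartile on every array.

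Over the 7 relatives the lowest 95% limit of a log2 fold was -0.65, for DEAR3, and the highest was 0.87, for DEAR1. Because RAP2.9 was picked for its rise, its gap to the relatives was not tested. Signal from probes that match more than 1 of these related genes was not separated.

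The A-5 subgroup has 7 further genes, and none of them passed the test either. Their median log2 fold was -0.20, with 2 above 0 and 5 below. AT1G71520 had the highest, 0.46 (SE 0.13), at 4.97, 4.79 and 4.76 in GFP:IOE against 5.42, 5.42 and 5.06 in ERF6:IOE, with no overlap (limma adjusted p 0.33). AT1G44830 went the other way without overlap, by -0.37 (SE 0.15, limma adjusted p 0.574). ORA47, a regulator of jasmonate synthesis genes after wounding, had the lowest log2 fold, -0.49, but also the widest spread of the 7 (SE 0.37). It lay at 4.94, 5.89 and 6.04 in GFP:IOE and at 4.46, 5.62 and 5.33 in ERF6:IOE, low on the arrays of repeat 1 in both lines. It was singled out after its values were seen, as were CBF1, CBF2, DREB1A, DREB2A, COR15A and ERD7 further on and ERF9, ERF11 and ERF12.

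**Figure D2:**
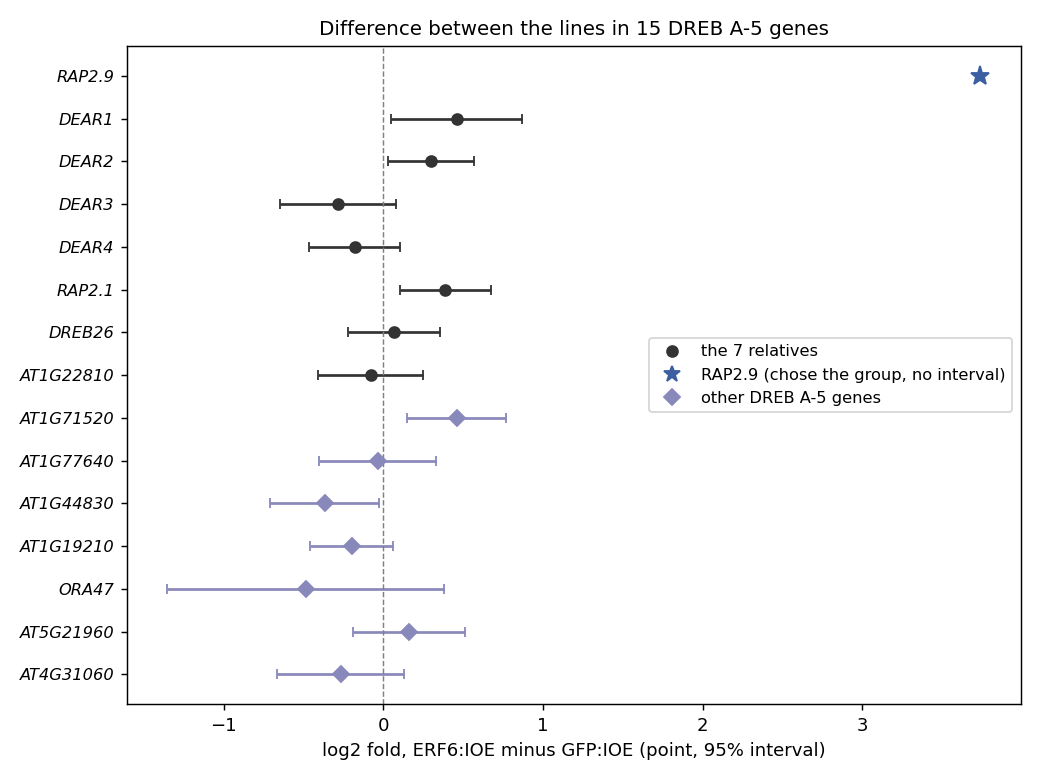
Log2 fold of ERF6:IOE minus GFP:IOE (x axis) for the 15 genes of the A-5 subgroup, with circles for the 7 relatives and diamonds for the other 7 genes, both with 95% intervals from the limma fit, and a star without an interval for RAP2.9, whose value chose the group. RAP2.9 stands at 3.74, and the other points lie between -0.49 and 0.46.

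The CBF activators, which bind the same element, were not called between the lines, yet differed widely between repeats. CBF1 lay at 5.44, 5.58 and 7.88 in GFP:IOE and at 4.45, 4.94 and 8.11 in ERF6:IOE. CBF2 lay at 7.37, 7.50 and 9.72 against 7.28, 6.81 and 9.77. DREB1A, also known as CBF3, lay at 6.08, 6.15 and 8.64 against 5.81, 5.90 and 8.93.

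Repeat 3 was the highest array of its line for all 3 genes, by at least 2.21 log2 units over the next array in GFP:IOE and at least 2.49 in ERF6:IOE. By pooled SD within lines, CBF1 (1.71), DREB1A (1.62) and CBF2 (1.46) ranked 3, 5 and 7 of all 30237 rows. Their log2 folds between the lines were -0.46 (SE 1.03), -0.07 (SE 0.98) and -0.25 (SE 0.88) for CBF1, DREB1A and CBF2. Without repeat 3 of both lines the log2 folds were -0.82 (SE 0.20), -0.26 (SE 0.14) and -0.40 (SE 0.20), with limma adjusted p-values of 0.44, 0.913 and 0.881. Nor did they pass in a fit blocked on the repeat, where the SEs were 0.25, 0.15 and 0.17 (limma adjusted p 0.612, 0.916 and 0.696).

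Repeat 3 was the highest array in both lines for 6 of 6 A-1 genes, 6 of 10 CBF and DRE target genes and 4 of 6 touch and wound genes, against 12.8% of all rows. The counts were 3 of 7 for A-2, 4 of 10 for A-6 and 2 of 7 for salicylic acid and PR genes. They were 2 of 15 for A-4 and 1 of 6 for regulators of the CBF genes. Among the A-1 genes the lead of repeat 3 was smallest for DDF2, at 0.02 and 0.07 log2 units over the next array. DREB2A, a drought and heat regulator of subgroup A-2, lay at 4.25, 5.19 and 6.29 in GFP:IOE and at 4.55, 4.83 and 6.05 in ERF6:IOE. COR15A, a cold-regulated gene for a chloroplast protein, lay at 7.87, 8.35 and 8.80 against 7.44, 8.06 and 8.99. ERD7, another dehydration-responsive gene, lay at 5.17, 5.77 and 6.22 against 5.22, 5.72 and 6.28.

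For the A-5 members, repeat 3 was the highest array in both lines for 1 of the 8 (12.5%), close to the 12.8% of all rows. That member was DEAR4, which led there by 0.18 and 0.21 log2 units over the next array. Pooled SDs within lines ran from 0.13 for DEAR2 to 0.25 for DEAR1. RAP2.1 was highest on repeat 3 in GFP:IOE, by 0.27, but not in ERF6:IOE, where that array was 0.11 below the highest. On the ERF6:IOE arrays of repeats 1, 2 and 3, RAP2.9 lay at 7.08, 6.80 and 7.04. CBF1 lay there at 4.45, 4.94 and 8.11, CBF2 at 7.28, 6.81 and 9.77 and DREB1A at 5.81, 5.90 and 8.93. The part of the repeat in the members' values was not tested.

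**Figure D3:**
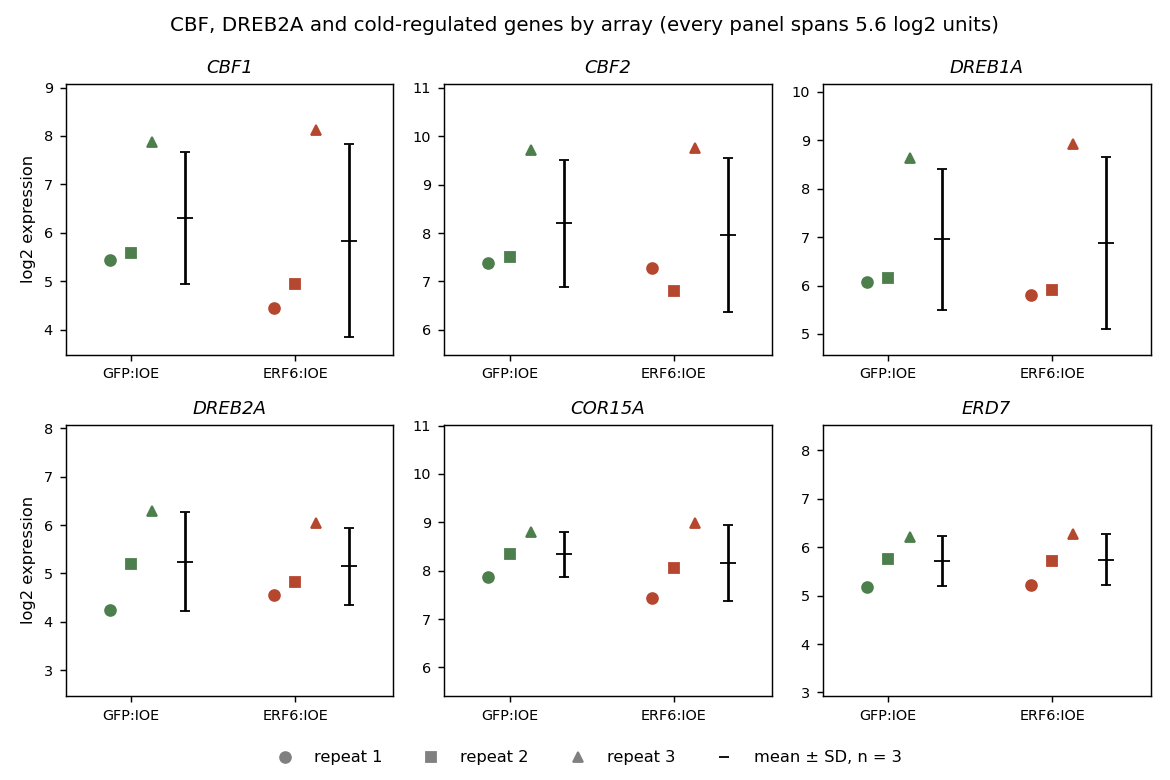
Log2 expression of CBF1, CBF2, DREB1A, DREB2A, COR15A and ERD7 on each array, with symbols for repeats 1, 2 and 3 and bars for the mean ± SD of 3 arrays. The triangles of repeat 3 are the highest in both lines in every panel, by at least 2.21 log2 units for the 3 CBF genes.

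No listed gene of the DREB subgroups A-1, A-2, A-4 and A-6 passed the test. Together with the 7 A-5 genes above, 45 listed DREB genes outside the group were measured and 0 were called by limma. At an unadjusted p under 0.05, 4 were higher and 2 lower, where 4.80% of all rows were higher and 3.22% lower. DREB genes outside these lists were not examined. The median log2 fold was -0.19 for 6 A-1 genes, 0.06 for 7 A-2 genes, 0.05 for 15 A-4 genes and -0.04 for 10 A-6 genes. In A-1, DDF1 had -0.23 (SE 0.42) and DDF2 -0.15 (SE 0.12). In A-2, DREB19 had 0.32 (SE 0.10, limma adjusted p 0.419) and DREB2C, a heat-responsive factor, 0.45 (SE 0.22). In A-6, AT1G22190 had -0.49 (SE 0.34) and RAP2.4 -0.29 (SE 0.25).

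Among the listed DREB genes, AT4G32800 of subgroup A-4 was the nearest to the threshold. It lay at 6.04, 5.71 and 6.22 in GFP:IOE and at 7.03, 6.76 and 6.98 in ERF6:IOE, clear of each other by 0.54 log2 units. The lines differed by 0.94 (SE 0.15) on the log2 scale, with an adjusted p of 0.0518 (limma). It passed in 4 of 18 alternatives, the 2 filters on dim rows, centred arrays and the variance trend (limma adjusted p from 0.0184 to 0.0436). Also in A-4, AT2G44940 stood at -0.29 (SE 0.10, limma adjusted p 0.463).

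Repressors of the ERF branch that carry an EAR motif had the highest median of the 15 lists, 0.60, though none of the 8 passed. At an unadjusted p under 0.05 there were 5 higher and 0 lower, where 4.80% and 3.22% of all rows were. The lines did not overlap for 6, all higher, where 6.93% of all rows were higher without overlap. The list was chosen with earlier results of these data known, so nothing is read from its median or these shares. ERF4, a repressor in ethylene and jasmonate responses, lay at 7.96, 8.63 and 8.53 in GFP:IOE and at 9.31, 9.31 and 9.69 in ERF6:IOE. Its log2 fold was 1.06 (SE 0.20, limma adjusted p 0.0885). ERF8, at 0.64 (SE 0.11), had an adjusted p of 0.0725 (limma). Both passed with either filter on dim rows and with the variance trend (limma adjusted p from 0.0232 to 0.0497). ERF9 (0.62), ERF12 (0.75) and ERF11 (0.59) had log2 folds of similar size and did not pass, while ERF3 (-0.03) and ERF7 (-0.09) lay near 0.

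The corepressors that EAR motifs recruit were nearly level between the lines. The log2 folds of the 7 genes, TOPLESS and its relatives, SAP18 and the histone deacetylase gene HD1, ran from -0.18 to 0.02 with a median of -0.09. TPR1 had -0.18 (SE 0.11) and TPR2 -0.12 (SE 0.09). Of 6 regulators of the CBF genes, none passed, with a median of -0.01. SR1, a calmodulin-binding activator of CBF2 also called CAMTA3, had 0.34 (SE 0.12, limma adjusted p 0.437), and HOS1, an E3 ligase gene, had -0.10 (SE 0.12).

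Among the listed genes downstream of DREB factors no difference passed. Of 10 measured CBF and DRE target genes 0 were called by limma and 0 passed at an unadjusted p under 0.05. Over all rows the shares were 0.698% higher and 0.0265% lower for calls, and 4.80% and 3.22% at that unadjusted p, so counts of 0 among 10 genes say little. The median log2 fold was 0.04, with a range from -0.25 to 0.28. LTI78, the marker gene also known as RD29A, had 0.24 (SE 0.25), and LTI65, or RD29B, had 0.08 (SE 0.10). Their SEs reached 0.40 (COR15A), against a median of 0.13 over all rows.

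Processes that DEAR1 and DEAR4 are linked to in other work were also examined. Of 7 salicylic acid and PR genes none passed, with a median of 0.01. PR5, a thaumatin-like defence gene, had 0.93 (SE 0.18, limma adjusted p 0.11), and PAD4 had -0.18 (SE 0.11). Of 8 senescence genes none passed, with a median of -0.0023. NAP, a senescence-promoting NAC factor gene, had 0.45 (SE 0.11, limma adjusted p 0.243), and the phosphatase gene HAI1 had -0.37 (SE 0.13).

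One gene of the 107 measured in the 15 lists was called. TCH3, a calmodulin-like gene induced by touch, rose from 8.03, 8.41 and 8.34 in GFP:IOE to 9.37, 9.25 and 9.41 in ERF6:IOE, or by 1.09 on the log2 scale (SE 0.13, limma adjusted p 0.0138). Its call was lost in 8 of 18 alternatives, including the blocked fit (limma adjusted p 0.0558) and those without repeat 1, 2 or 3 altogether (limma adjusted p 0.128, 0.137 and 0.187). It was lost too without ERF6:IOE replicate 1, 2 or 3 (limma adjusted p 0.0631, 0.0524 and 0.0714) and with a minimum fold (0.658). The other 5 touch and wound genes did not pass, with TCH4, a cell wall enzyme gene, at -0.32 (SE 0.30), and the median of the 6 was -0.14.

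**Figure D4:**
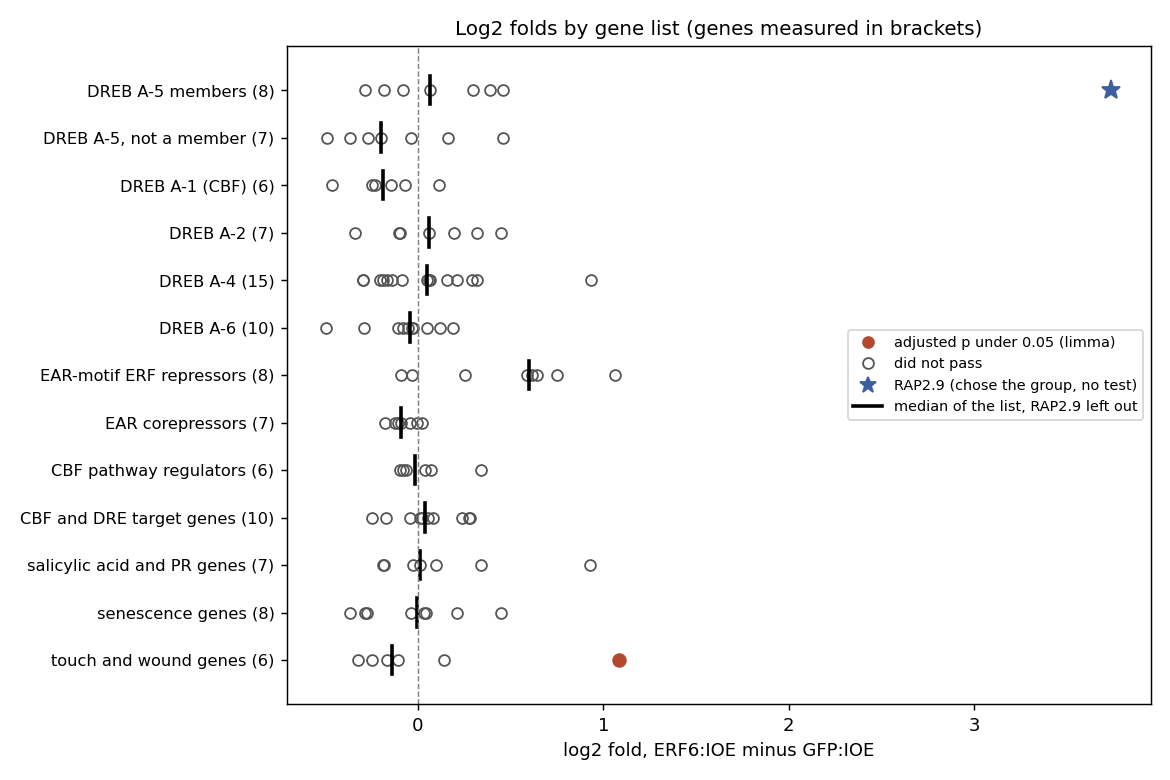
Log2 fold of ERF6:IOE minus GFP:IOE (x axis) for every measured gene of the members and of 12 gene lists, with a vertical bar at each median, filled circles for genes that passed the limma test, open circles for those that did not, and a star for RAP2.9, which is left out of its list's median. TCH3 at 1.09 is the 1 filled circle, and the EAR-motif ERF repressors have the highest median, 0.60.

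The rows most like RAP2.9 over the 6 arrays were found by the distance between values centred on each row's mean. The nearest were AT1G78850, a lectin gene, at a distance of 0.53 log2 units, and AACT1, an acyltransferase gene, at 0.59. The transcription factor genes WRKY18 (0.73) and ZAT6 (0.73) and the methyltransferase gene AT1G15125 (0.86) followed. Pearson's r with RAP2.9 over the 6 arrays ran from 0.992 to 0.999, values that mostly describe the step between the lines which all of these rows have. AACT1 was at 3.75, 3.95 and 3.78 in GFP:IOE and at 8.22, 7.46 and 7.67 in ERF6:IOE, from the same range near the floor as RAP2.9. No other AP2/ERF gene was among these 5 rows.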

How the data were processed

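The values are log2 expression levels, deposited by the authors as 30237 rows for 6 arrays. The submitters' processing notes name RMA, limma and the build TAIR9, and neither versions nor settings are given in the sources used here. Array medians of these log2 values ran from 4.85 to 4.90. Depth has no counterpart on arrays, and their number limits the precision.

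Lines were compared with limma 3.58.1 (lmFit, eBayes) in R 4.3.3 over all rows, without a level filter, two-sided, with Benjamini-Hochberg adjustment over all rows and a threshold of 0.05. The procedure was tested on simulated data in which the arrays were independent, so values shared by arrays of a repeat were not covered. SEs are moderated. Symbols came by locus from a TAIR10.1 name table, which matched 29715 rows, and no coordinates are given because the builds differ. A locus with several rows was represented by its brightest.

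Members and lists were chosen with earlier results of these data known. The 15 lists hold 111 genes, 107 of them measured. Named genes were the 8 members, in each list every called gene and the 2 with the largest absolute moderated t, and the 5 rows nearest to RAP2.9. List members were not subjected to a set test.

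The numbers of the repeats were not taken as pairs, since the labels do not say that a number marks a shared experiment. Deviations of same-numbered arrays correlated at 0.19, 0.078 and 0.21, and those of differently numbered arrays at -0.22 to 0.027. Same-numbered arrays were thus more alike, and the SEs include whatever they share, except in the fit with the repeat block. Alternatives were renewed quantile normalization, centring, 2 level filters, a variance trend, array weights, the repeat block, a minimum fold of 1.5, averaged rows and leaving out arrays. No sequences were used here.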

Additional observations from a re-analysis of the deposited data

How the results depend on the processing

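None of the 7 relatives was called in any of 18 alternatives, higher or lower, including the replicate block, where 143 rows were higher and 5 lower and the adjusted p of RAP2.1 was 0.398 (limma). DEAR1 and DREB26 were tested in 17 of the 18 and AT1G22810 in 16, as the level filters left them out of the rest. Under the alternatives the log2 fold ran from 0.17 to 0.64 for DEAR1, 0.27 to 0.50 for RAP2.1, 0.21 to 0.40 for DEAR2, -0.47 to -0.16 for DEAR3 and -0.26 to -0.10 for DEAR4. RAP2.9 stayed between 3.68 and 3.82. With arrays left out, signs changed in genes that did not pass, with ranges of -0.0495 to 0.14 for DREB26, -0.24 to 0.0233 for AT1G22810, -0.64 to 0.10 for DDF1, -0.12 to 0.00561 for SHR, -0.15 to 0.38 for STM and -0.0025 to 0.26 for LHCB2.1. Of all rows, 211 were higher and 8 lower. The level filters, which test fewer rows, gave 14 and 22 lower, and the minimum fold gave 51 higher and 1 lower. Leaving out arrays gave 45 to 126 higher and 1 to 6 lower. PR5 passed in 1 of 18 alternatives, the filter at the median level (limma adjusted p 0.0465). The block ended the call of TCH3 and of no other named gene. Signal over background was not analysed here.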
